A study of Rattus norvegicus with 6 samples.

Results

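Chemokines are small secreted proteins that guide leukocytes through G protein-coupled receptors, and 9 rat chemokine genes were examined here in cultured heart muscle cells: Cxcl1, Cxcl2, Cxcl10, Cxcl12, Cxcl16, Ccl2, Ccl7, Ccl20 and Cx3cl1. They were chosen by name, and every row of the deposited mRNA table whose RefSeq transcript belonged to one of them was used. Of the 9 genes, 8 had a row, and the 8 genes held 10 of the 20734 rows, because Cxcl12 had 3 transcripts. Cxcl10 had no row and was not analysed here. RNA came from ventricular myocytes of newborn Sprague-Dawley rats aged 1 to 3 days, kept as primary cultures that had been depleted of fibroblasts by letting these attach first, and then held in serum-free medium. The control group was 3 untreated cultures, and the isoproterenol group was 3 cultures exposed for 24 h to isoproterenol at 10 µM, a drug that activates beta-adrenergic receptors, to induce hypertrophy. Each culture was measured on a one-colour array with probes for mRNAs and long non-coding RNAs. Passaging is mentioned in the labels and transfected replicates in the description of the design, neither of which matches this treatment. No litter or culture day is given for a replicate, so p-values measure only the spread between these samples.

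The chemokines differ in the cells they call. Cxcl1 and Cxcl2 are ligands of the neutrophil receptor Cxcr2, Ccl2 and Ccl7 attract monocytes through Ccr2, and Ccl20 is the ligand of Ccr6. Cxcl16 and Cx3cl1 are made as membrane-anchored proteins that can hold Cxcr6- and Cx3cr1-bearing cells and are released by the proteases Adam10 and Adam17. Cxcl12 binds Cxcr4 and the scavenging receptor Ackr3 and is a homeostatic chemokine, whereas several of the others are known targets of NF-kB in inflamed tissue, the injured heart included.

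RefSeq promoters of assembly GRCr8 were at hand for 8 of the 9 genes, all but Ccl2. The 250 bases before the annotated start of Cxcl2, Cxcl1 and Cxcl16, the genes that passed the test of the treatment, and of Ccl20, which did not, are shown 5′ to 3′ on the gene's strand, and capitals mark matches to the kB motif GGGNNNTTCC on either strand.
Cxcl2, chr14:17467256-17467505, minus strand: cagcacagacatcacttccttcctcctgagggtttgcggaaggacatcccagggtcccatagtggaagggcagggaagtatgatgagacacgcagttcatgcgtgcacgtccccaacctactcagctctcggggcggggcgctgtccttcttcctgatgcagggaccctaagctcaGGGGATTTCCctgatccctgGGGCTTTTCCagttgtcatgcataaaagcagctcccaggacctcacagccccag
Cxcl1, chr14:17479322-17479571, minus strand: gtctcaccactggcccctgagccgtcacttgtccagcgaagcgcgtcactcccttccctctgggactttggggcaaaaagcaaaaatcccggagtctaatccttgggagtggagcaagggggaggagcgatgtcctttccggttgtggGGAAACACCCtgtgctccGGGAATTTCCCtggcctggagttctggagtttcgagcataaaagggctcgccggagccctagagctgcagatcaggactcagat
Cxcl16, chr10:55669951-55670200, minus strand: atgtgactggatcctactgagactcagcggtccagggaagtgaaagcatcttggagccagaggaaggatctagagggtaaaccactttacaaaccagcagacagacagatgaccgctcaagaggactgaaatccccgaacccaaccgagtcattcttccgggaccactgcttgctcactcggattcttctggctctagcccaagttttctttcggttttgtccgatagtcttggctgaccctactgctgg
Ccl20, chr9:91836909-91837158, plus strand: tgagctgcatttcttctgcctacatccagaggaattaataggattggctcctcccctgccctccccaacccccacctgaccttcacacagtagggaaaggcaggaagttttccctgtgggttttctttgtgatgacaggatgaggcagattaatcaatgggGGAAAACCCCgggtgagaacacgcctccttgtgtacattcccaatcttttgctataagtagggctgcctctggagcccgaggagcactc
Counted back from the last base before the start as -1, the Cxcl2 matches lay at -74 to -65 and at -54 to -45. Cxcl1 had a match at -102 to -93 and a pair of overlapping matches, 1 on each strand, at -84 to -75 and -83 to -74. Ccl20 had 1 match at -89 to -80, and in the Cxcl16 window these letters were not found. The motif was present in 5 of the 8 member promoters, those of Cxcl1, Cxcl2, Cxcl10, Ccl7 and Ccl20, and in 4.53% of all 33469 promoters of the same length. A search on both strands for the CRE motif TGACGTCA found it in 0 of the 8 and in 1.59% of all promoters. The AP-1 motif TGANTCA was found in 2 of the 8, Ccl7 and Cxcl10, and in 6.34% of all, and the C/EBP motif TTGCNNAA in 1 of the 8, Cxcl2, and in 9.22% of all. A match describes the letters of the window and is not evidence of binding.

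The array headers gave 2 scan identifiers, and arrays that share an identifier are called a slide here. Slides in this sense were read from the scan, not from a slide label. Treatment and slide partly coincide. Slide 1 held control replicates 1 to 3 and isoproterenol replicate 1, and slide 2 held isoproterenol replicates 2 and 3. Detection, meaning a signal well above background, held for 97.7% to 99.8% of mRNA probes per slide 1 array, and for 61.3% and 70.9% on the slide 2 arrays. Every level below is relative to its own array's 75th percentile of processed signals, which was 547 to 599 scanner units on slide 1 and for slide 2 was 207 and 249. The lowest relative log2 level that was well above background was -6.51 to -6.04 on slide 1 and -2.77 and -3.41 on slide 2. All 13 cardiomyocyte markers tested, among them Tnni3, Actc1 and Myh7, were detected on all 6 arrays. Detection alone says little on slide 1, where nearly all probes were detected. The markers' summed level, in multiples of each array's 75th percentile, was 2321 to 3052 in the controls and 3178 to 5321 with isoproterenol. That was above the sum of every other marker list, so the labelled cell type was borne out by the level of its defining genes. Markers of other cells were detected too: those tested for fibroblasts (12), endothelial cells (10) and macrophages (11) were all detected on isoproterenol replicate 1, with Col1a2, Pecam1 and C1qa detected on every array. The summed level of the 9 smooth muscle and pericyte markers, in multiples of each array's 75th percentile, was 66.3 to 92.6 in the controls and 153 to 351 with isoproterenol. Most of that sum was Tagln, which rose by 1.77, while Smtn fell by 0.81 and the median change of the 9 was -0.27. The summed level of the 6 mesothelial and epicardial markers was 18.9 to 21.0 in the controls and 32.6 to 50.4 with isoproterenol. Krt8 and Krt18 rose, and 4 did not pass. These were Upk1b at 0.94, Krt19 at 0.23, Tbx18 at -0.14 and Wt1 at -0.21. The median change of the 6 was 0.59. The summed levels of the 10 endothelial and 10 lymphocyte markers were 15.7 to 17.7 and 5.71 to 6.72 in the controls and 14.6 to 16.2 and 6.10 to 6.40 with isoproterenol. Of the endothelial markers 2 fell, Kdr by 1.22 and Cldn5 by 1.06, also with slide as a block, and 8 did not pass. Of the lymphocyte markers 1 fell, Cd3e by 1.62, and 9 did not pass. Kdr, Cldn5 and Cd3e were each detected on 1 isoproterenol array, and stood at -0.05, 0.001 and 0.13 after normexp background correction. The part of such cells in the chemokine levels was not tested. In such bulk RNA, a change in the number of cells of a type and a change in RNA per cell cannot be told apart.

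Isoproterenol was set against control with limma over 19924 mRNA genes, 8 of them chemokines of the list. Cxcl2, Cxcl1 and Cxcl16 rose, and the other 5 did not pass an adjusted p of 0.05. Over all genes 16.2% passed, 10.2% higher and 5.94% lower (2034 and 1184 genes). That split was 1382 to 1972 when the 75th percentile was taken over probes detected on every array and 2089 to 742 after normexp background correction. These settings moved the median log2 change of all genes from 0.07 to -0.17 and 0.37. The mean was higher with isoproterenol for 7 of the 8 chemokines, and the median of their log2 changes was 0.76. The groups did not overlap for 5 of the 8 genes, 4 higher and 1 lower, and did not overlap for 41.4% of all genes. With slide as a block, the change equals isoproterenol replicate 1 minus the mean of the controls, all on slide 1, and is called the slide 1 change below. Its median was 0.68 over the 8 chemokines and 0.11 over all genes, and 1 of the 8, Cxcl2, passed, against 7.31% of all genes.

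**Figure D1:**
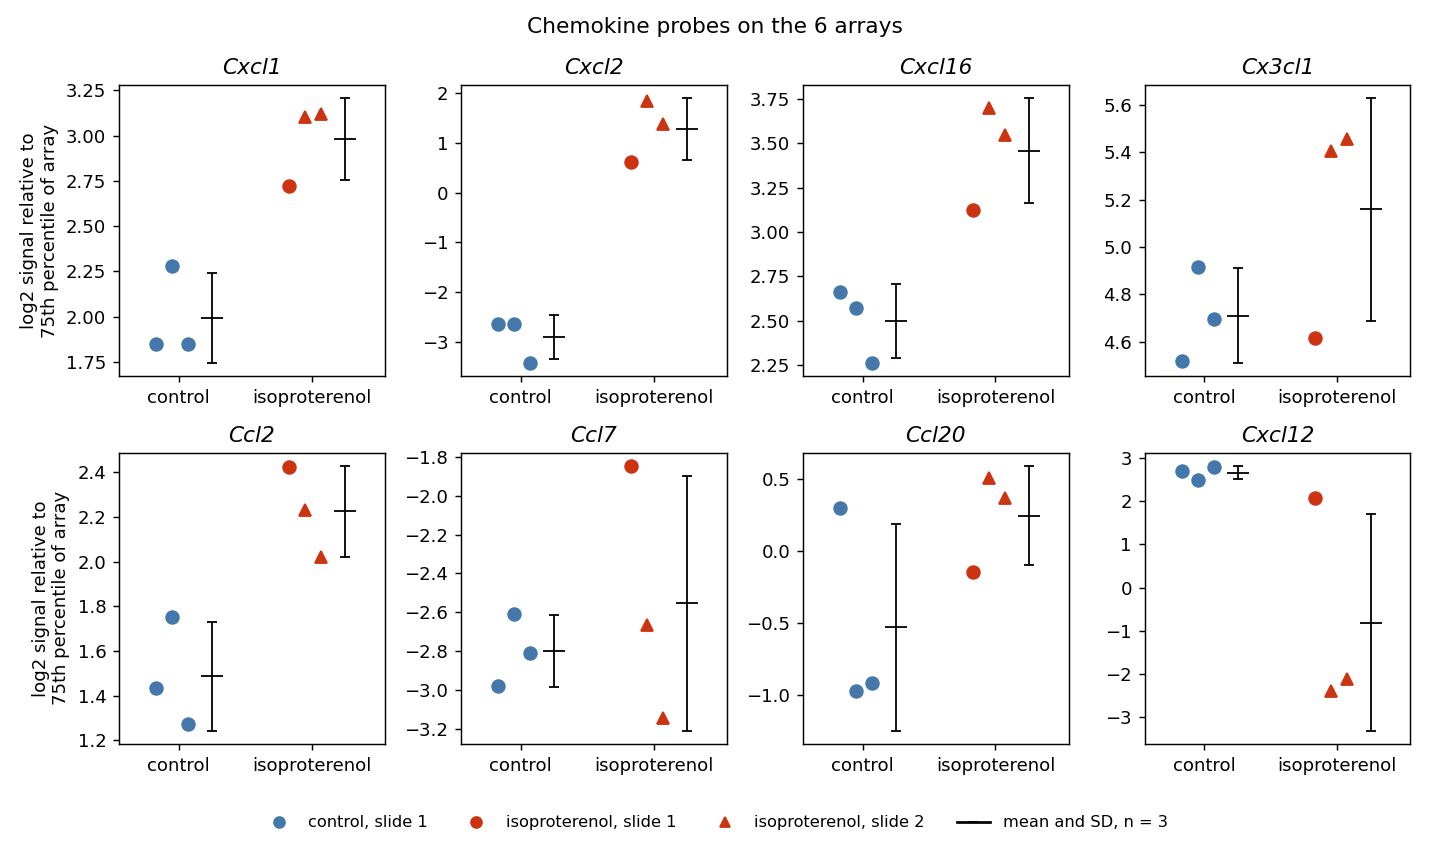
Relative log2 level (vertical axis, own scale in each panel) of the 8 chemokine genes on each array, with control in blue, isoproterenol in red, slide 2 arrays as triangles, and bars for the mean and SD of 3 arrays. The 3 isoproterenol arrays lie above all controls for Cxcl1, Cxcl2, Cxcl16 and Ccl2, and below them for Cxcl12, where both triangles are far under the slide 1 arrays.

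Cxcl2 and Cxcl1, which attract neutrophils, both rose. The Cxcl2 transcript (NM_053647) had relative log2 levels of -2.64, -2.64 and -3.42 on the control arrays and 0.63, 1.85 and 1.38 on the isoproterenol arrays. The processed signals behind them were 87.8, 93.2 and 51.5 scanner units in the controls and 927, 749 and 646 with isoproterenol. Every isoproterenol array was well above every control, and the lowest of them was the one on slide 1. Cxcl2 rose by 4.19 ± 0.37 on the log2 scale (SE, n = 3 per group), or 18.2-fold, with an adjusted p of 0.00265 by limma. By that value it ranked 4 among the rises of all genes tested. Its slide 1 change was 3.53 ± 0.38, or 11.6-fold (adjusted p = 0.0175 with slide as a block). It passed under each of 16 alternative settings, with changes between 3.21 and 4.52 and adjusted p between 0.000521 and 0.0321.

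Cxcl1 (NM_030845), the neighbouring gene and a ligand of the same receptor, had relative log2 levels of 1.85, 2.28 and 1.85 in the controls and 2.72, 3.10 and 3.12 with isoproterenol. All isoproterenol arrays were again above all controls, with the slide 1 array closest to them. The rise was 0.99 ± 0.21 (SE, n = 3 per group), or 1.98-fold, with an adjusted p of 0.0249. Its slide 1 change of 0.73 ± 0.22 did not pass (adjusted p = 0.113). The call was also lost when any 1 of control replicates 1, 2 and 3 or isoproterenol replicates 2 and 3 was left out, with changes from 0.92 to 1.13 and adjusted p from 0.0649 to 0.121.

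Of the membrane-anchored chemokines, Cxcl16 rose and Cx3cl1 did not pass. Cxcl16 (NM_001017478) had relative log2 levels of 2.66, 2.57 and 2.26 in the controls and 3.13, 3.70 and 3.55 with isoproterenol. The groups did not overlap, and the slide 1 isoproterenol array lay between the controls and the slide 2 arrays. The rise was 0.96 ± 0.22 (SE, n = 3 per group), or 1.94-fold, with an adjusted p of 0.0307. Its slide 1 change was 0.63 ± 0.21 (adjusted p = 0.134), the call was lost under quantile normalization (0.72, adjusted p = 0.0514), and leaving out any array but isoproterenol replicate 1 gave 0.84 to 1.04 with adjusted p from 0.0731 to 0.138.

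Cx3cl1 (NM_134455), also called fractalkine, had relative log2 levels of 4.52, 4.92 and 4.70 in the controls and 4.62, 5.40 and 5.45 with isoproterenol. The slide 1 isoproterenol array lay among the controls, and both slide 2 arrays lay above them. The change over all arrays was 0.45 ± 0.27 (adjusted p = 0.264) and the slide 1 change was -0.09 ± 0.20 (adjusted p = 0.795). Without isoproterenol replicate 1, a comparison in which treatment and slide cannot be told apart, the change was 0.72 (adjusted p = 0.0129).

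**Figure D2:**
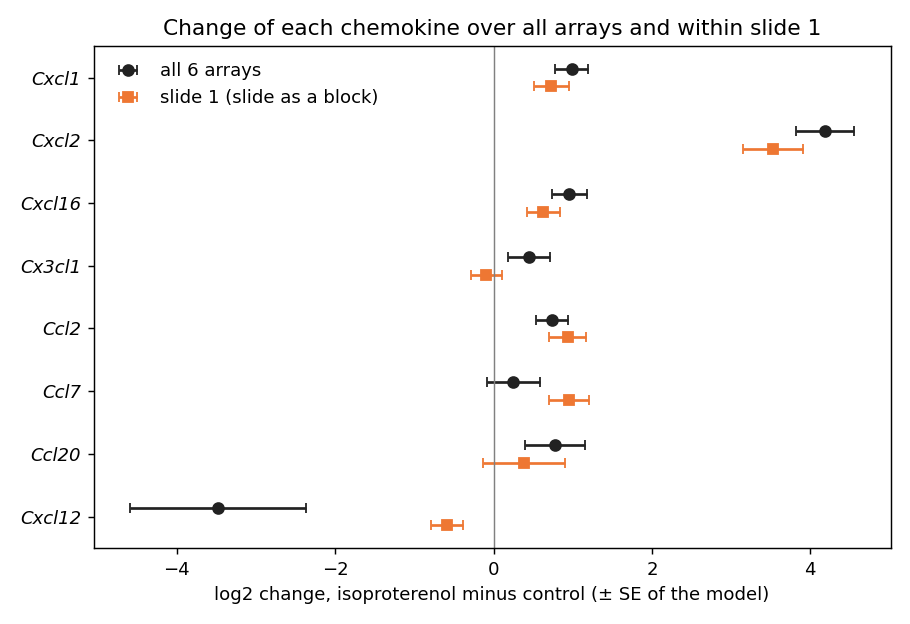
Log2 change, isoproterenol minus control (horizontal axis), with the SE of the model, for each of the 8 chemokines over all 6 arrays (black circles) and within slide 1 (orange squares). Cxcl2 stands at 4.19 and 3.53, Cx3cl1 at 0.45 and -0.09, and Cxcl12 at -3.48 and -0.59.

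The monocyte chemokines lay just short of the threshold or far from it. Ccl2 (NM_031530) had relative log2 levels of 1.44, 1.75 and 1.27 in the controls and 2.42, 2.23 and 2.02 with isoproterenol. The groups did not overlap, and here the slide 1 isoproterenol array was the highest of the 6. The change was 0.74 ± 0.20 (SE, n = 3 per group; adjusted p = 0.0522), and the slide 1 change was 0.94 ± 0.23 (adjusted p = 0.0720). Ccl2 passed under 3 of 16 alternatives. Of these, median scaling gave 0.81 (adjusted p = 0.0492) and a filter for detection on every array 0.74 (adjusted p = 0.0221). The last was without isoproterenol replicate 1 (0.64, adjusted p = 0.0320), where treatment and slide cannot be told apart.

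Ccl7 (NM_001007612), which lies next to Ccl2 on chromosome 10, had relative log2 levels of -2.98, -2.61 and -2.81 in the controls and -1.85, -2.67 and -3.14 with isoproterenol. The slide 1 isoproterenol array stood above the controls. Of the slide 2 arrays, both close to the lowest detected level there, replicate 2 lay among the controls and replicate 3 below them. The probe was well above background on 3 control and 2 isoproterenol arrays. The change was 0.25 ± 0.33 (adjusted p = 0.619), and the slide 1 change was 0.95 ± 0.25 (adjusted p = 0.0842). It passed under normexp background correction alone of 15 alternatives (0.60, adjusted p = 0.0419) and was -0.11 without isoproterenol replicate 1.

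For Ccl20 (NM_019233), the ligand of Ccr6, the controls themselves were spread widely. Its relative log2 levels were 0.30, -0.98 and -0.92 in the controls and -0.15, 0.51 and 0.37 with isoproterenol. Control replicate 1 lay above the slide 1 isoproterenol array, so the groups overlapped. The change was 0.78 ± 0.38 (adjusted p = 0.189), the slide 1 change was 0.38 ± 0.52 (adjusted p = 0.678), and the value without control replicate 1 was 1.19 (adjusted p = 0.0561).

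Cxcl12 was the 1 chemokine of the 8 with a lower mean, and it did not pass. Its brightest probe (NM_001033883) had relative log2 levels of 2.71, 2.50 and 2.79 in the controls and 2.08, -2.40 and -2.11 with isoproterenol. The processed signals were 3573, 3301 and 3828 scanner units in the controls, 2534 on isoproterenol replicate 1, and 39.2 and 57.6 on replicates 2 and 3. The slide 1 isoproterenol array was below all 3 controls, while both slide 2 arrays lay over 4 log2 units below every slide 1 array. The change over all arrays was -3.48 ± 1.11 (adjusted p = 0.0748) and the slide 1 change was -0.59 ± 0.20 (adjusted p = 0.142). The change was -4.93 without isoproterenol replicate 1 (adjusted p = 0.000381), and the adjusted p was 0.0378 when only probes detected on every array were tested. The gap between the slides, from the lowest slide 1 array down to the highest slide 2 array, was -4.19, and 16 of the 19924 genes, Cxcl12 included, had a gap as low or lower. On the slide 2 arrays 825 genes lay over 1 log2 unit below every slide 1 array.

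The other Cxcl12 probes were too dim in the controls to show such a fall on slide 2. The probe of NM_001033882 had relative log2 levels of -4.50, -4.07 and -4.16 in the controls and -4.04, -3.15 and -4.10 with isoproterenol. The probe of NM_022177 read -4.54, -4.02 and -4.19 in the controls and -4.79, -4.56 and -2.10 with isoproterenol. Control levels of both probes lay below the lowest detected on slide 2, -2.77 on replicate 2 and -3.41 on replicate 3. Of their slide 2 values, only that of NM_022177 on replicate 3 was above this limit. The probes of NM_001033882 and NM_022177 were well above background on 1 and 2 isoproterenol arrays, respectively. The changes were 0.48 ± 0.29 (adjusted p = 0.270) and 0.43 ± 0.68 (adjusted p = 0.670), and the slide 1 changes were 0.20 and -0.54. For NM_022177 the positive value over all arrays came with a high level on isoproterenol replicate 3, since replicates 1 and 2 lay below every control. Fibroblasts are a known source of Cxcl12, and 2 of the 12 fibroblast markers rose and 5 fell. Those that rose were Ddr2 at 1.03 and Thy1 at 1.06, and those that fell included Col3a1 at -1.10 and Lum at -1.60. The brightest, Col1a2, stood at 0.65 and did not pass. The summed level of the 12 markers was 157 to 166 in the controls and 134 to 179 with isoproterenol, with 134 on the slide 1 array. All 12 were detected on each slide 1 array, and 10 and 11 of them on the slide 2 arrays, and their part in the Cxcl12 levels was not tested.

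**Figure D3:**
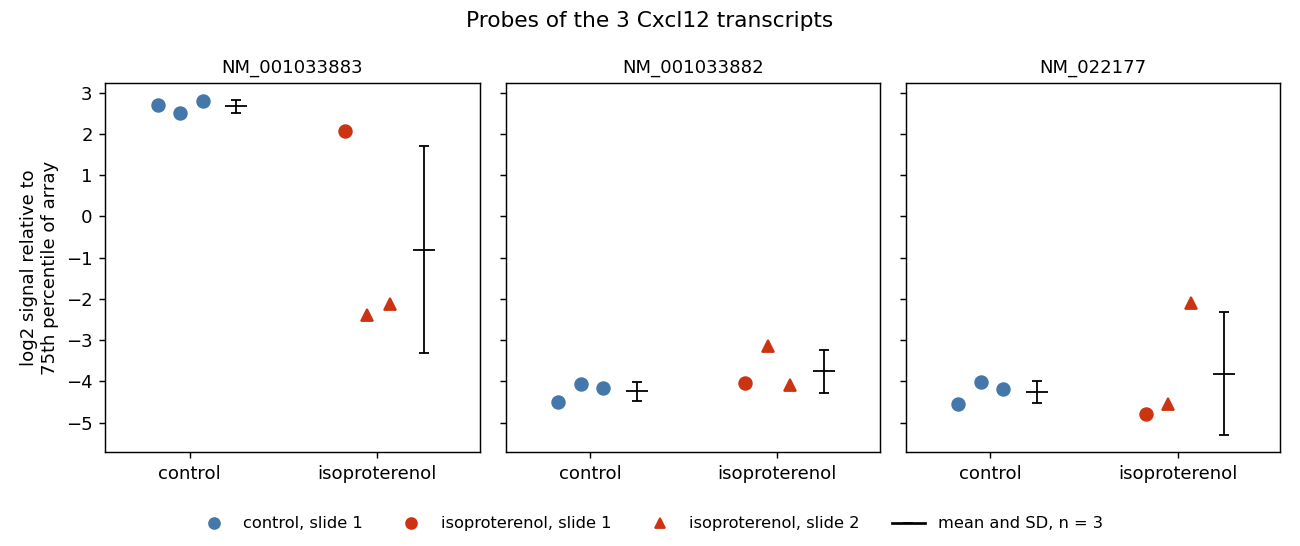
Relative log2 level (shared vertical axis) of the probes of the 3 Cxcl12 transcripts on each array, with control in blue, isoproterenol in red, slide 2 as triangles, and bars for the mean and SD of 3 arrays. The probe of NM_001033883 reads 2.08 on the slide 1 isoproterenol array and -2.40 and -2.11 on slide 2, whereas the other probes lie between -4.79 and -2.10 throughout.

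Among the 13197 named genes tested, those whose centred profiles over the 6 arrays lay closest to Cxcl2 were C9h6orf141, F2rl1, Slc7a3, Gal and Ereg, with root mean square differences of 0.36, 0.36, 0.37, 0.40 and 0.42 log2 units. F2rl1 encodes a protease-activated receptor, Slc7a3 a cationic amino acid transporter, Gal the neuropeptide galanin and Ereg the growth factor epiregulin. Their changes over all arrays lay between 3.67 and 4.48 and their slide 1 changes between 2.74 and 3.61. The genes closest to Cxcl12 were Dnajb7, Kif28p, Eeig2, Depdc1b and Defb43, with differences of 0.26, 0.26, 0.34, 0.38 and 0.39. Like Cxcl12 they were low on both slide 2 arrays, with changes over all arrays from -3.94 to -3.08 and slide 1 changes from -0.92 to -0.47. For both members the similar changes follow from the choice of genes by profile.

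The chemokines outside the 9 genes moved in both directions. Of 28 listed, 20 were tested, and 3 rose, 2 fell and 15 missed the threshold. Over all genes 10.2% rose and 5.94% fell, the background for this count and for those of the related lists below. Their median change was 0.22, against 0.07 over all genes. Ccl6, a CC chemokine of rodents, had relative log2 levels of -3.07, -3.38 and -2.68 in the controls and -0.77, -0.77 and -0.56 with isoproterenol. All 3 isoproterenol arrays, the slide 1 array included, lay far above the controls, and Ccl6 rose by 2.34 ± 0.22 (adjusted p = 0.00329), with a slide 1 change of 2.27. Cxcl14 rose by 1.05 ± 0.18 (adjusted p = 0.0135) and Ccl17, a ligand of Ccr4, by 1.46 ± 0.37 (adjusted p = 0.0417), although Ccl17 was detected on 2 control arrays and 1 isoproterenol array, had a slide 1 change of 0.96 (adjusted p = 0.264) and passed in 4 of 15 alternatives. Cxcl11, a ligand of Cxcr3 like Cxcl10, had relative log2 levels of -0.30, 0.34 and -0.10 in the controls and -1.84, -3.07 and -3.12 with isoproterenol. All 3 isoproterenol arrays, the slide 1 array included, lay below every control, and Cxcl11 fell by 2.66 on the log2 scale (SE 0.38, adjusted p = 0.00886), with a slide 1 change of -1.83. It was detected on 2 isoproterenol arrays, not on replicate 2, and the change was -1.55 after normexp correction, so the size of the fall is uncertain. Cxcl13, a B cell chemokine, fell by 1.01 (SE 0.22, adjusted p = 0.0286) and had a slide 1 change of -1.41. Cxcl6, detected on 1 isoproterenol array, changed sign between the analyses, at 0.65 over all arrays (adjusted p = 0.312) and -0.31 on slide 1. Ccl5 stood at 0.04 (adjusted p = 0.910). Ccl3 and Ccl27 passed with slide as a block, at 1.04 (adjusted p = 0.0375) and 1.94 (adjusted p = 0.0155), and not over all arrays, at 0.74 (adjusted p = 0.0524) and 1.18 (adjusted p = 0.0548).

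Of 23 chemokine receptors listed 15 were tested, 1 rose and 14 did not pass, and the median change was -0.23 over all arrays and 0.16 on slide 1. Of the 15, 5 and 7 were detected on the slide 2 arrays. The gene that rose was Ccr1, a receptor of Ccl3, Ccl5 and Ccl7, with relative log2 levels of -1.94, -1.79 and -2.06 in the controls and -0.39, -0.66 and -0.40 with isoproterenol. It rose by 1.45 ± 0.17 (adjusted p = 0.00599), with a slide 1 change of 1.54 (adjusted p = 0.0211), and passed in each of 16 alternatives. The neutrophil receptor Cxcr2 stood at -1.02 (adjusted p = 0.195), and the Cxcl12 receptors Cxcr4 and Ackr3 at -0.04 (adjusted p = 0.957) and -0.24 (adjusted p = 0.577). Each of these was well above background on 1 isoproterenol array, and each had a positive value after normexp background correction. Ccr1 is also a gene of myeloid cells, and of 11 macrophage markers 1, Cd14, rose and 10 did not pass. Cd14 passed in 9 of 16 alternatives, and the median change of the 11 markers was -0.01. The summed level of the 11 was 29.6 to 42.5 in the controls and 39.9 to 58.1 with isoproterenol. Of 7 neutrophil markers 1, S100a8, rose and 6 did not pass, and their summed level was 2.38 to 2.42 in the controls and 2.07 to 2.82 with isoproterenol. The part of such cells in the levels of Ccr1, Ccl6 and Cxcl2 was not tested.

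**Figure D4:**
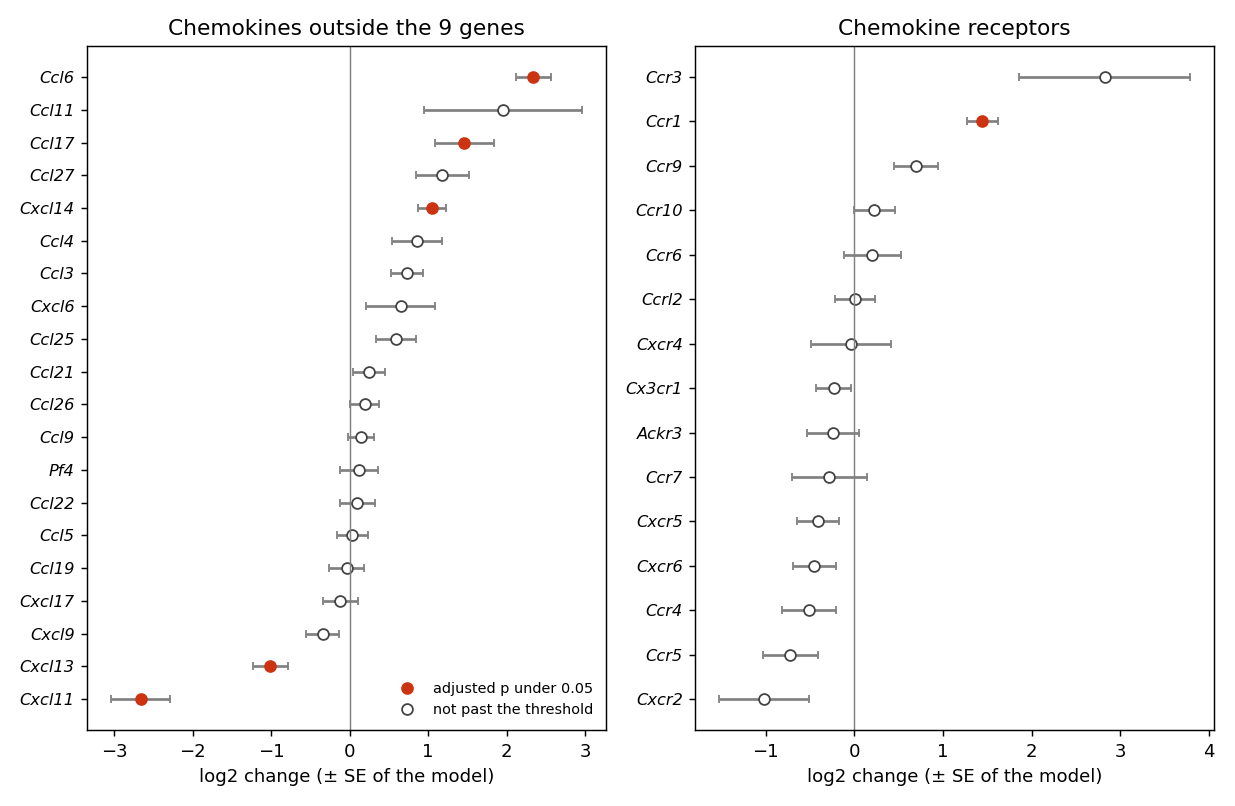
Log2 change, isoproterenol minus control (horizontal axes), with the SE of the model, over all 6 arrays for the 20 chemokines outside the 9 genes (left) and the 15 receptors (right) that were tested. Filled red points passed an adjusted p of 0.05: Ccl6, Ccl17, Cxcl14, Cxcl13 and Cxcl11 on the left and Ccr1 on the right.

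Cytokines that induce chemokines, and their receptors, made up a further list, in which 23 of 29 genes were tested, 3 rose and 20 did not pass. The median change was 0.19. Il6 had relative log2 levels of -2.52, -2.79 and -2.96 in the controls and -0.71, -0.91 and -0.69 with isoproterenol. Each isoproterenol array, the slide 1 array included, lay over 1 log2 unit above every control, and it rose by 1.99 ± 0.19 (adjusted p = 0.00323; slide 1 change 2.05), in each of 16 alternatives too. Il33, an alarmin of the interleukin-1 family, rose by 1.06 ± 0.21 (adjusted p = 0.0206), and the interleukin-17 receptor Il17ra by 0.91 ± 0.19 (adjusted p = 0.0222). Tnf and Il1b, classical inducers of Cxcl1 and Cxcl2, stood at 0.18 (adjusted p = 0.681) and 0.60 (adjusted p = 0.0931). Tnf was well above background on 1 isoproterenol array, stood at 0.71 after normexp correction and passed in 0 of 15 alternatives.

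Of 25 subunits, kinases and inhibitors of NF-kB 17 were tested. While 3 rose and 1 fell, 13 missed the threshold, and the median change was 0.25. The atypical inhibitor Bcl3 rose by 1.20 ± 0.29 (adjusted p = 0.0357), the kinase Chuk by 0.92 ± 0.23 (adjusted p = 0.0404) and the deubiquitinase Cyld by 0.80 ± 0.16 (adjusted p = 0.0232). None of these 3 passed with slide as a block, where Bcl3 stood at 0.57 (adjusted p = 0.0948), Chuk at 0.52 (adjusted p = 0.176) and Cyld at 0.68 (adjusted p = 0.0682). Nfkbia, an inhibitor that NF-kB itself induces, stood at 0.35 over all arrays (adjusted p = 0.429) and -0.32 on slide 1. Traf1, an adaptor of tumour necrosis factor receptors, fell by 1.47 (SE 0.27, adjusted p = 0.0157), but was detected on 1 isoproterenol array and stood at 0.08 after normexp correction.

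The interferon-side regulators of Cxcl10 had 17 of 19 genes tested, of which 5 fell and 12 did not pass, and a median change of -0.38. Irf7, a factor of the interferon response, had relative log2 levels of 3.00, 3.33 and 3.12 in the controls and 1.27, 2.30 and 1.91 with isoproterenol. All isoproterenol arrays were below all controls, the slide 1 array furthest, and Irf7 fell by 1.33 (SE 0.28, adjusted p = 0.0254; slide 1 change -1.88). Irf9, a DNA-binding partner of Stat2, fell by 0.73 (SE 0.18, adjusted p = 0.0405; slide 1 change -0.97). It stood at -0.24 after normexp correction and passed in 5 of 16 alternatives. Irf1, the adaptor Mavs and Stat2 had changes of -1.53 (adjusted p = 0.0246), -1.42 (adjusted p = 0.00731) and -1.05 (adjusted p = 0.0109). Each was detected on 1 isoproterenol array, that of slide 1, and the slide 1 changes were -0.83, -1.27 and -1.02. Over all arrays their values after normexp correction were 0.03, 0.17 and 0.06.

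Factors that set the stability of AU-rich mRNAs, such as those of Cxcl1 and Cxcl2, had 12 of 15 genes tested. In this list 1 rose, 1 fell and 10 missed the threshold, and the median change was 0.06. The phosphatase Dusp1, which switches off p38, rose by 1.07 ± 0.19 (adjusted p = 0.0157), and the RNA-binding protein Arid5a fell by 1.29 (SE 0.33, adjusted p = 0.0441), with a slide 1 change of -0.60 that did not pass (adjusted p = 0.230). Zfp36, which promotes decay of these mRNAs, stood at -0.21 (adjusted p = 0.510). Among 15 genes for the shedding, cleavage and surface binding of chemokines 4 rose, 1 fell and 10 missed the threshold. Of all genes 10.2% rose and 5.94% fell. The median change of the 15 was 0.41. Ext1, which builds heparan sulfate, rose by 1.55 ± 0.24 (adjusted p = 0.0112) and the heparan sulfate proteoglycans Sdc4 and Sdc1 by 1.34 ± 0.24 (adjusted p = 0.0149) and 0.63 ± 0.16 (adjusted p = 0.0429). Adam17, a sheddase of Cxcl16 and Cx3cl1, rose by 0.87 ± 0.23 (adjusted p = 0.0455; slide 1 change 0.42, adjusted p = 0.144), and Adam10 stood at 0.34 (adjusted p = 0.395). Mmp2, a protease that cleaves Cxcl12, fell by 0.97 (SE 0.19, adjusted p = 0.0203; slide 1 change -1.20). Of the genes of the related lists named as having risen or fallen, Ccl6, Ccr1 and Il6 passed in each of their 16 alternatives, and each of the others lost the call in at least 1. With slide as a block the call was also lost for Il33, Il17ra, Traf1, Irf1, Dusp1, Sdc4 and Sdc1, with adjusted p from 0.0558 to 0.0963.

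By their order in assembly GRCr8, Cxcl2 and Cxcl1 lie on chromosome 14 beside Areg, Ereg, Epgn and Mthfd2l on one side and Pf4 and Cxcl6 on the other. These neighbours were chosen after their values had been seen, and Cxcl3 and Ppbp on the same side as Pf4 were not analysed here. The growth factor gene Ereg had relative log2 levels of -2.38, -3.18 and -3.17 in the controls and 0.49, 0.95 and 0.94 with isoproterenol. No control came within 2 log2 units of an isoproterenol array, and Ereg rose by 3.70 ± 0.28 (adjusted p = 0.00226). Areg, which encodes amphiregulin, rose by 1.43 ± 0.20 (adjusted p = 0.00819) and the mitochondrial folate enzyme gene Mthfd2l by 1.50 ± 0.24 (adjusted p = 0.0120). Epgn, between Ereg and Mthfd2l, stood at -0.66 over all arrays (adjusted p = 0.355) and at 0.50 on slide 1. Epgn was detected on 1 isoproterenol array. Pf4, the platelet chemokine, stood at 0.12 (adjusted p = 0.740). Next to Cxcl10, Cxcl11 fell as given above and Cxcl9, detected on 1 isoproterenol array, stood at -0.34 (adjusted p = 0.277). On chromosome 10 the eosinophil chemokine Ccl11, beside Ccl7, stood at 1.96 over all arrays (adjusted p = 0.204) and at -0.43 on slide 1.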

How the data were processed

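Total RNA of 6 cultures was hybridised to one-colour arrays. Per the file headers, the deposited scanner files hold linear Cy3 intensity values from Agilent Feature Extraction 11.0.1.1, background-subtracted, for 43040 spots, of which 0 were saturated. The deposited mRNA table holds log2 values by the authors that lay close to quantile-normalized intensities, made with a tool not given in the sources used here. Scanner files give design numbers only, so 20639 of the 20734 rows were matched to probes by their values (distance under 0.05 log2 and under 0.25 of that to the next probe). A RefSeq table of GRCr8 named 13904 of the 14700 matched NM rows.

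From the scanner files, log2 of the processed signal minus each array's 75th percentile over 38321 non-control probes was computed, leaving out outlier spots and averaging spots of a probe. Probes well above background on at least 3 arrays were kept, a gene was its brightest probe, and genes with an outlier-marked spot on an array were not tested. Groups were compared with limma 3.58.1 in R 4.3.3 (two-sided, Benjamini-Hochberg over 19924 mRNA genes, threshold 0.05). The fit was tested on simulated data. The number of arrays limits the precision. Changes are differences of log2 means with the SE of the model.

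Alternatives were median, detected-probe and quantile scaling, normexp (offset 50, on median signals), the filters, the deposited table, slide and replicate blocks, and leaving out each array. The 9 genes, the related lists and the marker lists were chosen with earlier results of these data known. Named were every listed chemokine, of each related list up to 4 genes with the largest changes past the threshold and a fixed set of regulators, of marker lists the brightest, and the 5 genes most like Cxcl2 and Cxcl12. Cxcl13, Irf9, Sdc1, Ccl3, Ccl27, Cd14, S100a8, Lum, Ddr2, Thy1, Krt18, Krt19, Wt1, Kdr, Cldn5 and Cd3e were named after their values were seen. 1 gene of that fixed set is not reported here.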

Additional observations from a re-analysis of the deposited data

How the results depend on the processing

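Cxcl2 kept its direction and its call in each of the 16 alternatives. The chemokines that rose numbered 1 with slide as a block and 1 with slide 1 alone, where the lone isoproterenol array is assumed to vary like the controls, and 1 to 5 when each array was left out in turn. Those that fell numbered 1 with the filter for detection on every array and 0 to 1 when each array was left out. Genes changed numbered 3218 over all mRNAs, 1457 with slide as a block, 1043 with slide 1 alone, and 369 (without control replicate 3) to 10387 (without isoproterenol replicate 1, where treatment and slide cannot be told apart) when each array was left out. Reversed values were -0.093 for Cx3cl1 with slide as a block and with slide 1 alone, -0.11 for Ccl7 without isoproterenol replicate 1 (up to 0.54 without isoproterenol replicate 3), and 0.43 and 0.48 for the other Cxcl12 probes, the former with a slide 1 change of -0.54.

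Replicate numbers recur in both groups, but same-numbered arrays did not deviate together (correlations of deviations over genes 0.01, 0.05 and -0.02). This cannot show whether the numbers pair cultures, because the isoproterenol deviations also carry the difference between slides. With the replicate block 1469 genes changed and 1 chemokine, Cxcl2, rose, while Cxcl1 had an adjusted p of 0.0530 and Cxcl16 of 0.0743. The filter on dim probes removed 0 tested genes. On slide 2 the signal over background limits what can be read of low levels, those of Ccl7 and Cxcl12 included. Causes of these shifts were not tested.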
